A study of Homo sapiens with 4 samples.

Results

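The SOX, T-box, GATA and RUNX genes are 4 families of transcription factors that direct the choice of cell lineage, and 42 of these genes were examined: 19 SOX, 14 T-box, 6 GATA and 3 RUNX genes. They were measured by ATAC-seq, in which a transposase cuts open chromatin, in HepG2, an established human liver cancer cell line that the labels give as wild type. There were 2 libraries of untreated cells (control) and 2 of cells given 5 µM tazemetostat, an inhibitor of the histone methyltransferase EZH2, for 48 h, and each library was made from 50000 cells. The labels name no vehicle for the controls, and nothing in them says that replicates came from separate cultures, so that p-values measure the spread between these samples, which may be technical. Peaks of the 4 libraries were merged where they overlapped, which gave 80551 regions, and a region was assigned to a gene when it overlapped the gene body or the 10 kb on either side (the window). The windows of the 42 genes held 173 of these regions.

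SOX proteins bind DNA through an HMG box, T-box proteins through the T domain, GATA proteins through zinc fingers and RUNX proteins through the runt domain as partners of CBFB. EZH2 is the catalytic subunit of Polycomb repressive complex 2, which methylates lysine 27 of histone H3, and genes for lineage-specifying factors that a cell does not use are among the best known targets of that complex. In liver, GATA4, GATA6 and SOX17 act in the endoderm from which hepatocytes arise, and SOX9 and SOX4 act in the bile duct lineage. The other 37 genes are best known from other lineages, such as RUNX1 in blood, SOX10 in neural crest, TBX5 in heart and RUNX2 in bone.

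The control libraries held 26133 and 34768 peaks and the tazemetostat libraries 55313 and 54157, from 17.2 and 23.8 M mapped tags against 19.8 and 26.6 M. The share of tags that lay in peaks was 4.32% and 5.69% in the controls and 11.5% and 9.81% under tazemetostat. Control replicate 1 was the shallowest library and had the fewest peaks. A fragment length of 200 bp was used for both controls and 144 bp for both tazemetostat libraries, so that this setting and the treatment cannot be told apart. Of 11 hepatocyte marker genes, 7 had a peak at a transcription start in all 4 libraries, among them APOA1, APOB and HNF4A, and 4, among them ALB and AFP, had none in any library. Of 12 marker genes of leukocytes, endothelium, fibroblasts and neurons, 10 had none, PDGFRB had one in all 4 libraries, and SYP had one in both tazemetostat libraries.

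The sequences below carry the regions on which the results turn. The first 4 are bases just upstream of a transcription start within a called region, on the strand of the gene, with CpG dinucleotides in capitals. SOX4, TBX21 and GATA6 had a peak there in each tazemetostat library and in no control, and RUNX1 had one in all 4 libraries. The last 2 are the centres of regions near TBX2 and TBX4 with the largest tag counts among those called only in the tazemetostat libraries, with matches to the GATA consensus AGATAA, in either direction, in capitals. All were read from the hg38 reference genome.
SOX4 upstream of the start, chr6:21593451-21593750 (+ strand): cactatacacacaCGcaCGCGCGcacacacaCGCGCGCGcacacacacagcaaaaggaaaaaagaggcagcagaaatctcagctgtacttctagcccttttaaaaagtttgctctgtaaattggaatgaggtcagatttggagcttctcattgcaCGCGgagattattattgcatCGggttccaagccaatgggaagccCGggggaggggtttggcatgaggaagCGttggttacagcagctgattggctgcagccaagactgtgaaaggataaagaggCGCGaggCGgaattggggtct
TBX21 upstream of the start, chr17:47732989-47733235 (+ strand): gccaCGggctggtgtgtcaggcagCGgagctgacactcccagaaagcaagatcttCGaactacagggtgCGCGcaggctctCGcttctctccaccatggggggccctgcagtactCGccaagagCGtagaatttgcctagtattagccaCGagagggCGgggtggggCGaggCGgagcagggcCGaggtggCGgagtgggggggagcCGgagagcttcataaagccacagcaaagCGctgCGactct
GATA6 upstream of the start, chr18:22169289-22169588 (+ strand): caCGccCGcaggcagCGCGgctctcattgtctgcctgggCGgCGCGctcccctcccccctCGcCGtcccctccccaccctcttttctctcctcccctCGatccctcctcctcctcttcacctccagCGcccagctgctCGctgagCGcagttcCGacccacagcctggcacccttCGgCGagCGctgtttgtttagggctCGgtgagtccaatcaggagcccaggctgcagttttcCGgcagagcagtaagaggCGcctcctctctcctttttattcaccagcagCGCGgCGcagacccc
RUNX1 upstream of the start, chr21:34888691-34888990 (- strand): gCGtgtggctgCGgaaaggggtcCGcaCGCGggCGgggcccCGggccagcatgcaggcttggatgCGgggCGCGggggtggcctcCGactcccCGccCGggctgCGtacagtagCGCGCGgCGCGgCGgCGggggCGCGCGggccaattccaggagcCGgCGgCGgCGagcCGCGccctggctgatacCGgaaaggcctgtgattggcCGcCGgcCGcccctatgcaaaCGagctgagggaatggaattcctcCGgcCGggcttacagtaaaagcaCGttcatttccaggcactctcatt
TBX2 flanking region, chr17:61394097-61394396 (+ strand): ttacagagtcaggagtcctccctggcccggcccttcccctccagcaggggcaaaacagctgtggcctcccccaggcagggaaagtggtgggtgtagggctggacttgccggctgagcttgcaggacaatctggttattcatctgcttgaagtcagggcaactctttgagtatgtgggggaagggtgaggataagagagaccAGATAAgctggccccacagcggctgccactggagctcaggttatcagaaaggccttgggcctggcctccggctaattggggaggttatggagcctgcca
TBX4 intron, chr17:61460814-61461113 (+ strand): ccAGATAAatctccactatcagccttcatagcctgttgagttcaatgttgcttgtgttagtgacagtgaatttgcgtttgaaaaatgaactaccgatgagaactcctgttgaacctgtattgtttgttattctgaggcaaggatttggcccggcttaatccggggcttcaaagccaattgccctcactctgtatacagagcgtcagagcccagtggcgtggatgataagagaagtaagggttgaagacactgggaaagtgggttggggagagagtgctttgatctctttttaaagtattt

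The stretch upstream of RUNX1 held 38 CpG dinucleotides in 300 bases and that upstream of GATA6 held 23. The TBX2 and TBX4 stretches held 4 and 6. The 16 regions at a start of one of the 42 genes had a median GC content of 67.0% and a median observed over expected CpG ratio of 0.713, against 51.6% and 0.267 in the 157 other regions and 52.0% and 0.251 over all 80551 regions. RefSeq promoters (250 bases before to 50 after the start, hg38) were matched for 29 of the 42 genes. Of these, 19 (65.5%) had a CpG ratio of at least 0.6, against 48.9% of the 35116 promoters of the table.

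The first comparison asked where the 4 families had called peaks and whether these differed between untreated and treated cells. The number of peaks in the windows was 54 and 79 in the controls and 128 and 129 under tazemetostat, and the groups did not overlap. The means were 66.5 ± 17.7 and 128.5 ± 0.707 (SD, n = 2 each), and a two-sided exact permutation test gave p = 0.3333, the smallest value that 2 against 2 can give. The summed normalised tag count (tags per 10 M mapped tags) of these peaks was 802 and 1211 in the controls and 2584 and 2202 under tazemetostat (exact permutation p = 0.3333). As a share of each library, the windows held 2.07 and 2.27 of every 1000 peaks for the controls, against 2.31 and 2.38 under tazemetostat. With the same number of peaks taken from each library, the strongest 26133, the difference between the group means fell from 62.0 to 7.5 peaks.

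Every family had more peaks under tazemetostat in both libraries than in either control. SOX windows held 22 and 30 peaks in the controls, against 51 and 48 in the treated libraries. T-box windows held 9 and 10 against 24 and 18. GATA windows held 7 and 11 against 14 and 15, and RUNX windows 16 and 28 against 39 and 48. Set against the peaks of each library, the control and tazemetostat values were apart for the SOX genes, at 0.842 and 0.863 against 0.922 and 0.886 per 1000 peaks. They overlapped for the other 3 families. In GATA windows the order was 0.268 and 0.316 in the controls and 0.253 and 0.277 under tazemetostat. Per 1000 tags in peaks, the values were apart for the SOX genes, at 0.747 and 0.841 against 0.911 and 0.932. They were apart also for the T-box genes, at 0.381 and 0.301 against 0.429 and 0.388. The GATA and RUNX values overlapped on that scale.

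**Figure D1:**
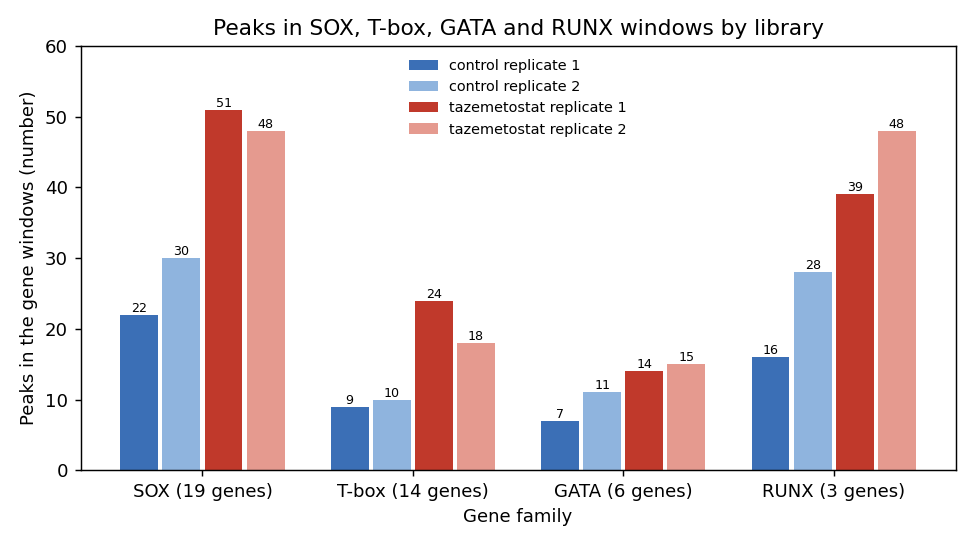
Number of called peaks (y axis) in the windows of each gene family (x axis), with 1 bar per library. In each family both tazemetostat bars stand above both control bars, from 14 and 15 against 7 and 11 in GATA windows to 51 and 48 against 22 and 30 in SOX windows.

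Of the 173 regions, 31 (17.9%) had a peak in each tazemetostat library and in no control, referred to as tazemetostat-only, against 13.7% of all regions. None was called in both controls and neither tazemetostat library (control-only), against 0.449% of all regions. All 4 libraries shared 36 regions (20.8%, against 20.4% of all regions), and 106 had another pattern. The most frequent of these was a peak in every library but control replicate 1, the shallowest, with 27 regions (15.6%, against 10.6% of all regions). The tazemetostat-only regions numbered 57 without control replicate 2 (34.5%, against 26% of all regions). They numbered 57 also without tazemetostat replicate 1 (37.7% against 36.4%) and without tazemetostat replicate 2 (37.7% against 37.2%), shares close to those of all regions. The control-only regions numbered 9 without control replicate 1 (5.52%, against 7.58% of all regions), 10 without control replicate 2 (6.06% against 6.86%) and 2 without tazemetostat replicate 2 (1.32% against 1.03%). With equal numbers of peaks per library, 13 of 108 regions (12.0%) were tazemetostat-only, against 5.99% of all regions under that setting. Control-only regions then numbered 3 (2.78%, against 2.51% of all regions). With a local fold of at least 8, the tazemetostat-only share was 12.5% in the windows and 13.3% over all regions.

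By family, 12 of 65 SOX regions (18.5%), 8 of 31 T-box regions (25.8%), 2 of 18 GATA regions (11.1%) and 9 of 59 RUNX regions (15.3%) were tazemetostat-only. Regions shared by all 4 libraries made up 33.3% of the GATA regions, 21.5% of the SOX, 18.6% of the RUNX and 16.1% of the T-box regions. A tazemetostat-only region lay in the window of 18 of the 42 genes (42.9%), against 32.4% of coding genes, whose windows differ in length from these. No gene had a control-only region in its window (against 1.34% of coding genes) or at its start (against 0.107%). No peak in any library was found for SOX1, SOX3, SOX18, TBX19, TBX20 and GATA5, which is 14.3% of the genes against 13.3% of coding genes. Of the 173 regions, 109 lay in introns, 35 in the flanks, 16 at an own start and 13 in exons, and 14 also held the start of another gene.

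Transcription starts were examined next, taking every start of a protein-coding transcript in GENCODE release 44. A library was counted at a start when it had a peak in a merged region that covered the start. The peak itself may end short of the start, and this holds for every count of start peaks given here. A peak at an own start was present in 4, 11, 14 and 11 of the 42 genes in control replicates 1 and 2 and tazemetostat replicates 1 and 2. These shares, 9.52%, 26.2%, 33.3% and 26.2%, lay below those of coding genes in the same libraries, 36.0%, 42.3%, 52.1% and 49.6%. In at least 1 library a start was called in 14 genes (33.3%, against 55.0% of coding genes). A start was tazemetostat-only in 3 genes (7.14%, against 6.01% of coding genes) and called in all 4 libraries in 4 genes (9.52%, against 32.5%).

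The 3 genes with a tazemetostat-only start were SOX4, TBX21 and GATA6. SOX4, a factor of progenitor cells and of bile duct development, lies at chr6:21593751-21598619, and its start region, chr6:21593380-21594068, had normalised tag counts of 30.2 and 25.2 in the tazemetostat libraries, from 60 and 67 tags. TBX21, the gene for T-bet of type 1 helper T cells, had a start region at chr17:47732989-47733338 with 14.6 and 14.3. GATA6, an endoderm factor, had one at chr18:22169283-22169607 with 13.6 and 10.5, from 27 and 28 tags. That region also holds a start of the antisense gene GATA6-AS1, and reads of ATAC-seq carry no information on which of the genes is used. The deposited lists give no value where no peak was called, so that no fold change could be computed for these genes.

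The SOX4 counts were the highest of the 3 in both libraries. Its called peaks were also longer, at 688 and 566 bp against 300 and 300 bp at both TBX21 and GATA6. The counts were not set per kb of peak here. SOX4 was also the one of the 3 that stayed tazemetostat-only with equal numbers of peaks per library. That setting ranks peaks by the same count. None of the 3 stayed tazemetostat-only at a local fold of at least 8. Without tazemetostat replicate 1 the start of GATA6 was no longer called in this way, as the peak of tazemetostat replicate 2 alone did not reach it. Without control replicate 2 the number of genes with a tazemetostat-only start rose to 8.

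The 4 genes with a start called in all libraries were SOX6, SOX9, GATA4 and RUNX1. SOX9, which marks bile duct cells and directs cartilage formation, had a start region at chr17:72120667-72121221 with normalised tag counts of 18 and 22.7 in the controls and 41.8 and 34.3 under tazemetostat. That region also holds a start of the antisense gene SOX9-AS1. Both treated values were above both controls, and the log2 difference was 0.87 ± 0.30 (SE; limma adjusted p = 0.0294). SOX6, which acts with SOX5 and SOX9 in cartilage, had 15.7 and 18.1 in the controls and 34.3 and 32.4 under tazemetostat at chr11:16356223-16356913, a log2 difference of 0.94 ± 0.29 (limma adjusted p = 0.0216). Another region at an own start of SOX6, chr11:16402589-16403419, had no peak in control replicate 1 and was not tested. It had 9.24 in control replicate 2 and 31.7 and 32.4 under tazemetostat. GATA4, a factor of endoderm and heart, had 16.3 and 21.0 in the controls and 20.2 and 23.3 under tazemetostat at chr8:11703856-11704397, and these groups overlapped. Its log2 difference was 0.22 ± 0.30 (limma adjusted p = 0.512). RUNX1, required for the first blood stem cells, had 14 and 25.2 in the controls and 32.8 and 25.2 under tazemetostat at chr21:34888491-34889187. Control replicate 2 and tazemetostat replicate 2 were equal there, and the log2 difference was 0.59 ± 0.32 (limma adjusted p = 0.122). Those of SOX6, GATA4 and RUNX1 are internal starts of the annotation. Without control replicate 1 the calls at SOX6 and SOX9 were lost (limma adjusted p = 0.0559 and 0.102), and without control replicate 2 the RUNX1 start passed, with a log2 difference of 0.99 (limma adjusted p = 0.0109). After median centring neither SOX6 nor SOX9 passed, with log2 differences of 0.18 and 0.11 (limma adjusted p = 0.808 and 0.889), and those at RUNX1 and GATA4 were below 0, at -0.17 and -0.54. Per kb of peak the differences at SOX6 and SOX9 were 0.51 and 0.47 and did not pass (limma adjusted p = 0.0565 and 0.075). At the annotated start of the gene itself, SOX9 alone of the 42 genes was called in all 4 libraries.

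The other 7 genes with a called start were SOX2, SOX5, SOX12, SOX13, EOMES, GATA2 and RUNX2, and none of them had a start peak in control replicate 1. SOX2, of pluripotent and neural cells, had 7.56 in control replicate 2 and 8.06 and 6.78 under tazemetostat. EOMES, of mesendoderm and lymphocytes, had 16.4 in that control and 28.3 and 26.4 under tazemetostat. SOX12, GATA2 and RUNX2 had no start peak in tazemetostat replicate 2 either, and GATA2, a factor of blood stem cells, had 23.9 and 27.7 in the other libraries.

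**Figure D2:**
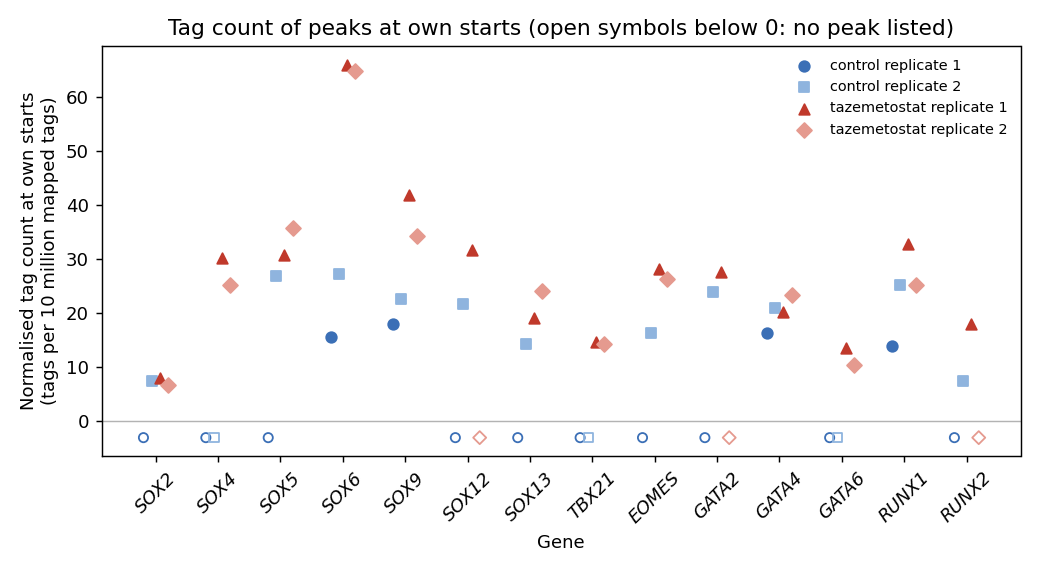
Normalised tag count in tags per 10 M mapped tags (y axis), summed over the peaks of all regions that cover an own start, for the 14 genes with such a region (x axis). Each library has 1 symbol, open and below 0 where no peak was listed. SOX4, TBX21 and GATA6 have symbols above 0 in both tazemetostat libraries alone, and SOX6, SOX9, GATA4 and RUNX1 have them in all 4.

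The 31 tazemetostat-only regions lay for the most part away from starts, with 22 in introns, 6 in flanks and 3 at starts. Their normalised tag counts ran from 6.05 to 37.8 in tazemetostat replicate 1 (median 12.6) and from 6.4 to 36.5 in replicate 2 (median 13.2). The medians over all 11044 tazemetostat-only regions were 11.1 and 10.2. The lowest values listed in the 4 libraries were 6.4 and 5.04 in the controls and 5.04 and 4.89 under tazemetostat.

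The highest of the 31 lay near the limb and heart genes TBX2 and TBX4, which are neighbours on chromosome 17. A region in the flank of TBX2, chr17:61394000-61394492, had 37.3 and 36.5 in the tazemetostat libraries, from 74 and 97 tags. It lies 5351 bp from the start of TBX2 and holds a start of the antisense gene TBX2-AS1. In introns of TBX4, a gene of hindlimb and lung mesenchyme, chr17:61460716-61461210 had 37.8 and 28.6, and chr17:61454899-61455495 had 34.8 and 27.1. The second of these lay 951 bp from an own start of TBX4. Each of these 3 regions had more in replicate 1 than in replicate 2, and none had a peak in a control.

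RUNX3, a factor of cytotoxic T cells and of neurons, had no peak in either control. It had 5 regions in tazemetostat replicate 1 and 2 in replicate 2. The intron regions chr1:24946780-24947320 and chr1:24916290-24916591 were called in both treated libraries, with 24.7 and 21.8 in the first and 19.1 and 16.2 in the second. A region at chr1:24911054-24911504 had 31.2 in tazemetostat replicate 1 and no peak in replicate 2. SOX5 had 4 tazemetostat-only regions and RUNX1 had 6, all in introns. SOX13 and EOMES had 2 each, and SOX10, which directs neural crest, had 1, at 16.6 in both libraries.

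**Figure D3:**
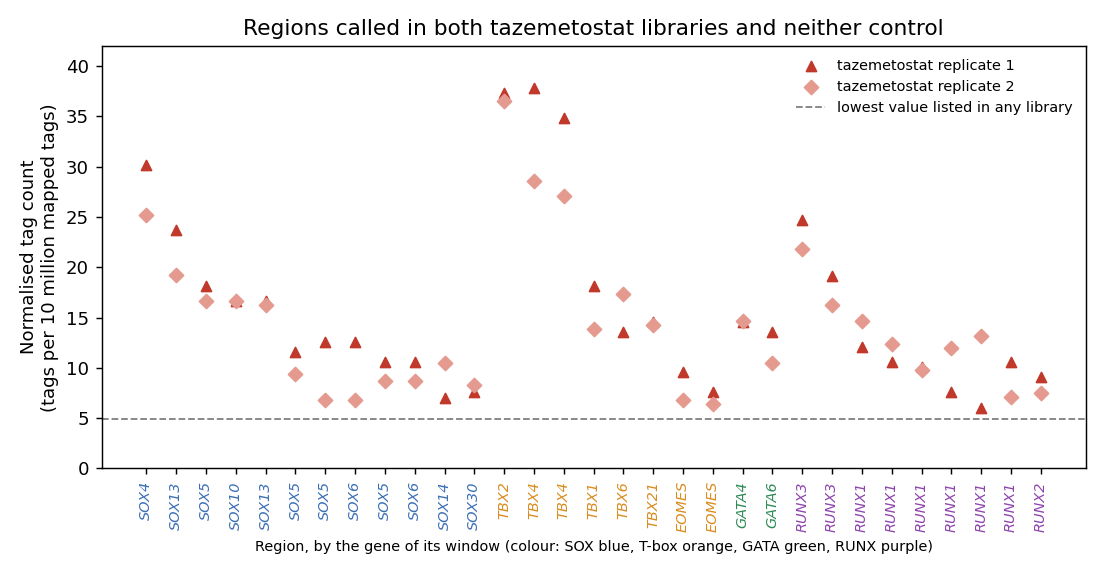
Normalised tag count in tags per 10 M mapped tags (y axis) of the 31 tazemetostat-only regions (x axis, by gene and coloured by family), with 1 symbol per library and a dashed line at 4.89, the lowest value listed in any library. The regions of TBX2 and TBX4 lie highest, between 27.1 and 37.8, and no other region exceeds the 30.2 of SOX4.

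The 4 consensus sequences of these families were searched in the central 200 bp of each region on both strands. AGATAA, the consensus of the GATA factors, was present in 24 of the 173 regions (13.9%, against 8.38% of all regions), ACAATG (SOX) in 23 (13.3%, against 10.2%), GGTGTGA (T-box) in 7 (4.05%, against 3.13%) and TGTGGTT (RUNX) in 13 (7.51%, against 3.77%). Among the 31 tazemetostat-only regions, AGATAA was found in 9 (29.0%, against 10.6% of all tazemetostat-only regions). The SOX consensus was found in 3 of the 31 (9.68% against 12.5%), the T-box consensus in 1 (3.23% against 2.51%) and the RUNX consensus in 1 (3.23% against 4.36%). Among the 36 shared regions AGATAA was found in 2 (5.56%, against 8.43% of all shared regions). There the SOX consensus was found in 3 (8.33% against 10.2%), the T-box consensus in 3 (8.33% against 2.32%) and the RUNX consensus in 4 (11.1% against 3.53%). The 9 regions with AGATAA lay in windows of SOX6, TBX2, TBX4, RUNX1 (3 regions), SOX14, RUNX2 and GATA4. The TBX4 region among them is chr17:61454899-61455495. The TBX4 stretch printed above is from chr17:61460716-61461210, whose match lies outside the central 200 bp, so that it is not counted. The RUNX1 regions can share features through their common locus. A match of these letters is a description of the sequence and not a bound site.

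Tag counts could be compared where a region had exactly 1 peak in every library, which was the case for 34 of the 173 regions and for 15383 regions in all. The comparison used limma on log2 of the normalised tag count plus a pseudocount of 1, so that changes of low values are understated. In 14 of the 34 regions (41.2%) the count was higher under tazemetostat at an adjusted p under 0.05, against 42.7% of all regions tested. In 0 it was lower, against 0.247%, with 1 lower at an unadjusted p under 0.05. edgeR with TMM factors called 0 higher (0.15% of all regions) and 1 lower (1.13% of all regions), and DESeq2 called 0 in either direction. The median log2 difference was 0.68 in the 34 regions and 0.70 over all regions tested. Centring each library on its median moved the median of all regions from 0.70 to -0.06. In limma 0 of the 34 regions then passed in either direction (before adjustment, 0 were higher and 3 lower at p under 0.05), as did 0 of all regions. The rises given here and below are therefore changes on the scale of mapped tags.

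On the scale of mapped tags, the largest rise was at chr17:7578994-7579844 in the window of SOX15, a region that holds the start of the macrophage gene CD68. Its counts of 18 and 50.8 in the controls stood against 91.7 and 70.4 in the treated libraries, a log2 difference of 1.37 ± 0.37 (limma adjusted p = 0.0137). The called peak was 300 and 623 bp long in the controls and 850 and 784 bp under tazemetostat. Per kb of peak the difference was 0.49 and did not pass (limma adjusted p = 0.067), below that of an intron region of GATA6, at 1.10. Control replicate 1 was the low library there, and without it the difference was 0.65 and did not pass (limma adjusted p = 0.132). An intron region of RUNX1, chr21:35019426-35019977, had 8.14 and 16 against 26.2 and 32.8, a log2 difference of 1.28 ± 0.33 (limma adjusted p = 0.0117). An intron region of SOX5, chr12:24078262-24078807, had 13.4 and 19.3 against 43.3 and 36.1, a log2 difference of 1.25 ± 0.30 (limma adjusted p = 0.0105). In all 3 regions both treated values were above both controls.

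GATA6 rose by 1.20 ± 0.32 on the log2 scale at an intron region, chr18:22194166-22194753 (limma adjusted p = 0.0137), where the counts were 7.56 and 14.3 in the controls and 28.2 and 22.6 under tazemetostat. Another RUNX1 intron region, chr21:35051207-35051706, had 8.14 and 9.24 against 25.7 and 17.3, a log2 difference of 1.19 ± 0.31 (limma adjusted p = 0.0119). The calls at the first RUNX1 region and at GATA6 were lost without control replicate 1 (limma adjusted p = 0.0591 and 0.0769). All 5 calls, and those at the starts of SOX6 and SOX9, were lost when either tazemetostat library was left out, which leaves 1 treated library and 0 calls over all 15383 regions.

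In 3 of the 34 regions the log2 difference was below 0. An intron region of RUNX1, chr21:34865160-34865807, had 20.9 and 17.2 in the controls and 12.6 and 11.3 under tazemetostat, and the groups did not overlap. The log2 difference was -0.63 ± 0.30 (limma adjusted p = 0.0815), and edgeR with TMM factors gave -1.38 (adjusted p = 0.0435). In limma it passed without control replicate 2, at -0.76 (adjusted p = 0.0471), and not without control replicate 1 (-0.49, adjusted p = 0.244). DESeq2 gave an adjusted p of 0.206 and the replicate block in limma 0.129. The called peaks were 574 and 647 bp long in the controls and 379 and 481 bp under tazemetostat, and per kb of peak the difference was -0.15 (limma adjusted p = 0.567). An intron region of GATA4, chr8:11717509-11718022, had 12.8 and 15.1 against 14.1 and 7.53, a log2 difference of -0.39 ± 0.32 (limma adjusted p = 0.277). Of the other GATA4 intron regions tested, chr8:11736117-11736776 rose, from 8.73 and 11.8 to 26.7 and 22.2. Its log2 difference was 1.18 ± 0.30 (limma adjusted p = 0.0118), and 0.42 after median centring. At chr8:11746324-11746824 the log2 difference was 0.03 ± 0.31 (limma adjusted p = 0.927). A region in the flank of SOX11, chr2:5705572-5706765, had 10.5 and 26.9 against 13.1 and 21.1, a log2 difference of -0.02 ± 0.36 (limma adjusted p = 0.96).

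**Figure D4:**
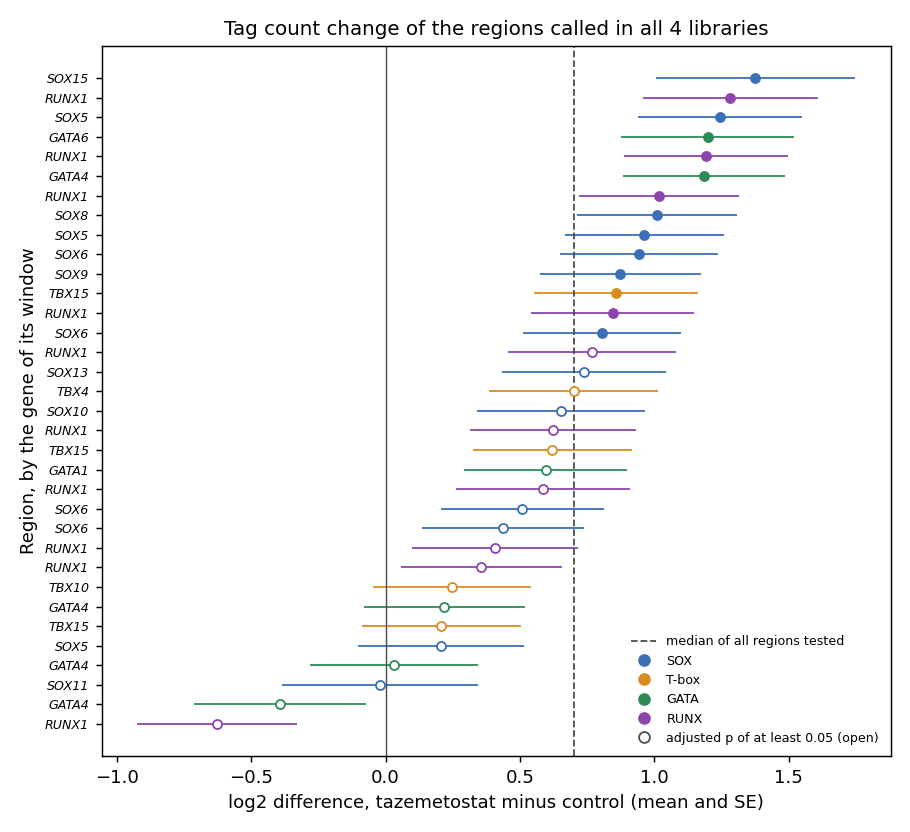
Log2 difference in normalised tag count, tazemetostat minus control (x axis, mean and SE, n = 2 libraries per group), of the 34 regions called once in every library (y axis, by gene), with filled symbols at a limma adjusted p under 0.05 and a dashed line at 0.70, the median of all regions tested. The 14 filled symbols lie at 0.80 or above, to the right of the dashed line, and 3 regions lie below 0.

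The 3 regions with the highest mean normalised tag count held starts of other genes. In the window of GATA1, the erythroid factor, a region at chrX:48801565-48802753 holds the start of HDAC6 and had 51.8 and 42 in the controls and 83.7 and 60.2 under tazemetostat (log2 difference 0.60 ± 0.30, limma adjusted p = 0.101; -0.16 after median centring). The region in the window of SOX15 has been given above. In an intron of RUNX2, chr6:45377321-45378550 holds the start of SUPT3H and had 38.4 and 48.7 against 67.5 and 55.7. Neither GATA1 nor SOX15 had a peak at an own start.

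The 5 genes known in liver (GATA4, GATA6, SOX4, SOX9 and SOX17) were set against the 37 known from other lineages. The liver genes held 20 regions in 229 kb of window, or 8.73 per 100 kb, and the others held 153, or 3.16 per 100 kb. These densities are taken over the summed windows of a class. The median of the values of single coding genes, an unlike measure, was 4.53. In the 4 genes with windows over 200 kb, all of other lineages, the density over summed windows was 2.59. In the 33 genes of other lineages with a window up to 200 kb the density was 4.58. A start was called in at least 1 library in 4 of the 5 liver genes and in 10 of the 37 others. It was called in all 4 libraries in 2 of the 5 and in 2 of the 37. Both classes had a tazemetostat-only start, in 2 liver genes (SOX4 and GATA6) and 1 other (TBX21). Of coding genes, 55.0% had a start called in at least 1 library, 32.5% in all 4, and 6.01% a tazemetostat-only start.

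Of the liver genes' regions, 3 (15.0%) were tazemetostat-only and 6 (30.0%) were shared, and of the others' 28 (18.3%) and 30 (19.6%), beside 13.7% and 20.4% of all regions. With a local fold of at least 8, 0 of 7 regions of the liver genes and 9 of 65 of the others (13.8%) were tazemetostat-only, against 13.3% of all regions. So few liver regions cannot show a difference there. With equal numbers of peaks per library it was 1 of 15 and 12 of 93 (6.67% and 12.9%), against 5.99% of all regions. With 1 library left out the share ran from 21.1% to 33.3% in the liver genes and from 22.2% to 38.8% in the others. Over all regions it ran from 17.4% to 37.2%, as 1 library then makes up a group. It was highest for the liver genes without tazemetostat replicate 1 and for the others without tazemetostat replicate 2. The liver windows held 8 and 10 peaks in the controls, against 15 and 16 in the treated libraries, and those of the other genes held 46 and 69 against 113 in each treated library (exact permutation p = 0.3333 for both). Per 1000 peaks of the library the liver windows held 0.306 and 0.288 against 0.271 and 0.295, and these groups overlapped. Those of the other genes held 1.76 and 1.98 against 2.04 and 2.09, and these did not (exact permutation p = 0.3333). Per 1000 tags in peaks of the library, the groups did not overlap in either class. The liver windows then held 0.213 and 0.239 against 0.244 and 0.255, and the others 1.64 and 1.89 against 2.00 and 1.99. GATA4 had the most regions of the liver genes, 11, of which 4 were shared. SOX17, which specifies endoderm and vessel, had 1 region, in an exon, with 7.91 in tazemetostat replicate 2 and no peak elsewhere.

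Among the other lineages, genes of mesoderm, heart and limb held 20 regions, of which 5 (25.0%) were tazemetostat-only, and none of these 10 genes had a start peak in any library. Genes of blood and lymphoid cells held 60 regions with 11 tazemetostat-only (18.3%), and 44 of the 60 lay in RUNX1. Genes of bone and cartilage held 45 with 7 (15.6%), and neural and neural crest genes 11 with 2 (18.2%). The vessel genes SOX7 and SOX18 had 3 regions in all, each called in 1 library, with 2 of them in control replicate 1.

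The 4 genes with windows over 200 kb (SOX5, SOX6, RUNX1 and RUNX2) held 89 of the 173 regions, of which 13 (14.6%) were tazemetostat-only. The other 38 genes held 84 regions with 18 tazemetostat-only (21.4%). Along SOX5 the highest peak was a shared intron region, chr12:24069563-24070436, with 33.2 and 28.2 in the controls and 62.5 and 58.7 under tazemetostat. Along RUNX1, of 44 regions, 10 were shared and 6 tazemetostat-only. Shared regions lay on both sides of the internal start region called in all 4 libraries. The highest RUNX1 region was chr21:34817734-34818342, with 16.3 and 20.2 against 40.8 and 35.0. Along SOX6, of 20 regions, 5 were shared, and the highest, chr11:16737894-16739088, holds the start of the neighbouring gene C11orf58.

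**Figure D5:**
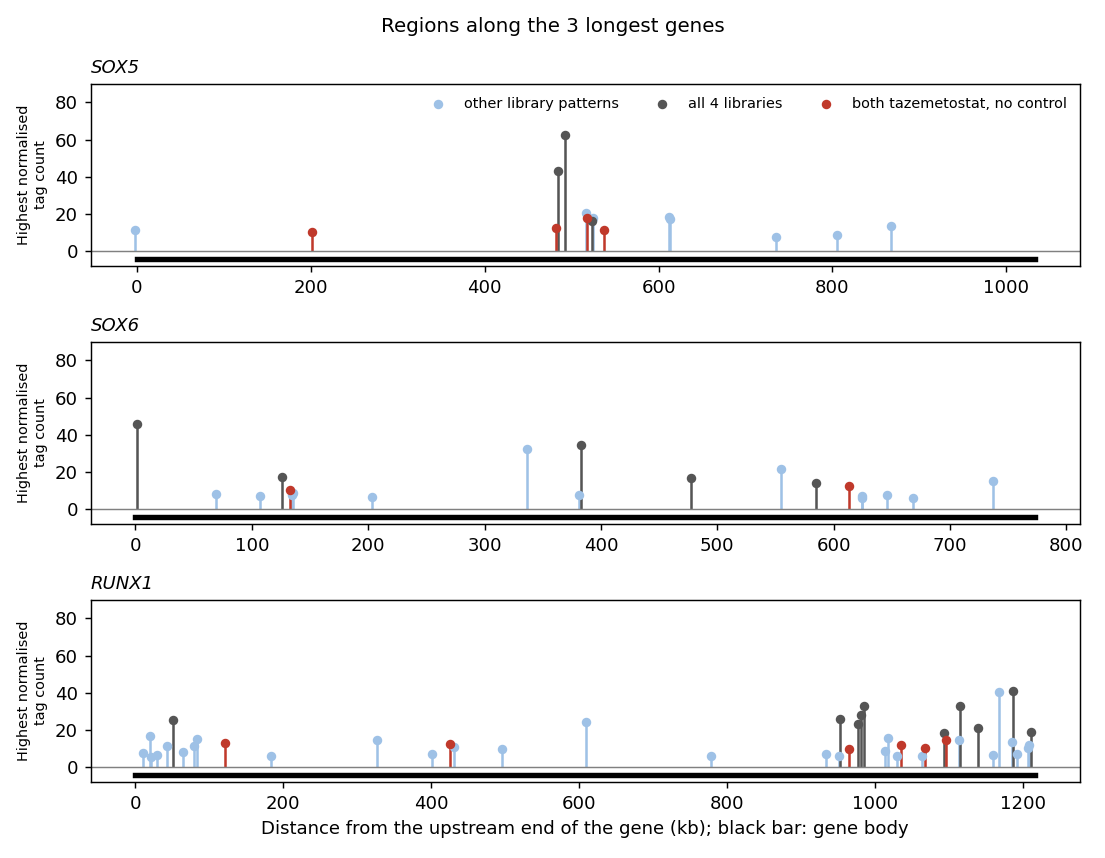
Highest normalised tag count over the 4 libraries in tags per 10 M mapped tags (y axis) of each region along SOX5, SOX6 and RUNX1, by distance in kb from the upstream end of the gene (x axis), coloured by the libraries that called it. The regions shared by all 4 libraries reach 62.5 in SOX5, 45.5 in SOX6 and 40.8 in RUNX1, and the tazemetostat-only regions stay at or below 18.1.

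Partners of these factors were examined as a list of 13 genes. A start was called in all 4 libraries in 3 of them: CBFB, the common partner of the RUNX proteins, with 10.5 and 21.4 in the controls and 18.6 and 15.1 under tazemetostat, and the corepressors TLE1 and TLE3. No start was called in any library for 6, among them the GATA cofactors ZFPM1 and ZFPM2 and the blood factors TAL1 and LMO2. Of coding genes, 32.5% had a start called in all 4 libraries and 55.0% in at least 1. Of the partners' 45 regions, 2 were tazemetostat-only, 14 were shared and 1, near SMAD3, was control-only. Of all regions, 13.7%, 20.4% and 0.449% had these patterns. The CBFB values of the groups overlapped.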

How the data were processed

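Sample titles gave the groups and replicate numbers. Per the submitters' processing notes and the methods, the authors used Trim Galore 0.6.6 for trimming, Bowtie2 2.3.5.1 for alignment to hg38 and HOMER 4.11.1 for calling peaks in each library, without pooling. The headers give a false discovery rate of 0.001, and the methods give 0.05. Tag counts were deposited as a normalised signal, in tags per 10 M mapped tags. The deposited score, a count of tags, and the deposited p-value were not used. The deposited ratio (fold over the local 10 kb) was used as an alternative filter at 8. Whole tags for edgeR and DESeq2 were obtained from the signal and the mapped tags of the headers.

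Peaks overlapping by at least 1 bp were merged and assigned with GENCODE release 44. The 42 genes and all lists were chosen with earlier results of these data known. Named in full were genes with a start called in 1 group alone or in all 4 libraries, the 5 largest rises and falls among regions tested (3 lay below 0), the 3 highest regions and genes without a peak; others were named after their values were seen. limma 3.58.1 was run over 15383 regions (Benjamini-Hochberg, 0.05), with edgeR 4.0.16 and DESeq2 1.42.0 (R 4.3.3) as alternatives; code was tested on simulated data. Library values were compared by the exact permutation test. No pairing by replicate number was seen (correlation of deviations -0.0025), which cannot show how the libraries were prepared. Counting error alone limits values from few tags.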

Additional observations from a re-analysis of the deposited data

How the results depend on the processing

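The count of 31 tazemetostat-only regions became 13 with equal numbers of peaks and 9 at a local fold of at least 8. It was 79 when 1 library of the group sufficed (45.7%, against 47.3% of all regions) and 18 without windows over 200 kb. With 1 library left out it ran from 36 to 57. Control-only regions, 0 as reported, numbered 3, 2 and 19 under the first 3 of these settings. These were 2.78%, 2.78% and 11%, against 2.51%, 1.95% and 13% of all regions. With 1 library left out they numbered 0 to 10. Tazemetostat-only starts (3) numbered 1 with equal numbers of peaks, 0 at the stricter fold and 5 within 1 kb of a start (TBX4 and GATA4 added), and 2 to 8 with 1 library left out. Starts called in all 4 libraries (4) numbered 1 at the stricter fold, 1 at the annotated gene start alone and 4 to 8 with 1 library left out. The difference in window peaks (62.0) was 7.5 with equal numbers of peaks, 21.0 at the stricter fold, 49.0 without the flank, 91.5 with a flank of 50 kb, 30.0 without windows over 200 kb, and 49.5 to 74.5 with 1 library left out. The difference in summed tag count (1387) was 867, 424, 1072 and 2238 under the first 4. The tazemetostat-only share of the liver genes (15.0%) was 0% at the stricter fold (0 of 7 regions, against 13.3% of all regions). It ran from 21.1% to 33.3% with 1 library left out. That of the other genes (18.3%) ran from 22.2% to 38.8% with 1 library left out. That of all regions (13.7%) then ran from 17.4% to 37.2%.

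Of the regions tested for tag count, the 14 that were higher became 0 after median centring, with edgeR and TMM factors and with DESeq2, and 9 per kb of peak. With 1 library left out they ran from 0 to 16. When that leaves 1 library in a group, it is assumed to vary like the others. The 0 that were lower became 1 with edgeR and TMM factors (the RUNX1 region) and 0 to 1 with 1 library left out. The replicate block gave 12 higher and 0 lower. Whether libraries of the same number were prepared together is not known. The RUNX1 start turned from 0.59 to -0.17, -0.18 and -0.16, the GATA4 start from 0.22 to -0.54, -0.48 and -0.48 and the HDAC6 start region in the GATA1 window from 0.60 to -0.16, -0.10 and -0.12 after median centring, with TMM factors and with DESeq2. With 1 library left out, the SOX11 region ran from -0.66 to 0.62 (0.30 without tazemetostat replicate 1) and the GATA4 intron region from -0.81 to 0.019. For the 13 tested regions that were named in full by the rule above, 43 alternative values kept direction but no longer passed. Of the rest, 4 came to pass, 12 turned and the others kept both. Median centring and size factors remove a change shared by all regions by their construction; the cause of the other moves was not tested.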
